A study of Mus musculus with 6 samples.

Results

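The core replication-dependent histone genes were taken as every gene in the count table whose symbol starts with Hist1h, Hist2h, Hist3h or Hist4h followed by 2a, 2b, 3 or 4. This name rule gave 32 genes of 12107, with 7 H2A, 9 H2B, 9 H3 and 7 H4 genes. The GENCODE annotation holds 61 such protein-coding genes, and those outside the table were not analysed here. By cluster, 22 members lie in Hist1 on chromosome 13, 7 in Hist2 on chromosome 3, 2 in Hist3 on chromosome 11 and 1 in Hist4 on chromosome 6. The values are read counts from ChIP-seq, in which DNA bound by a protein is pulled down with an antibody and sequenced. The antibody recognised the N-terminal part of RPB1 (gene Polr2a), the catalytic subunit of RNA polymerase II (Pol II). The study compared 3 Armc5(-/-) libraries, called KO, with 3 wild-type (WT) libraries of the same stage and strain label. All were neural stem cells, called neural precursor cells (NPCs) here, taken from fetal ganglionic eminences at e13.5, labelled as strain 129 sv X CD1, grown as neurospheres with epidermal growth factor and used at the second passage. Armc5 encodes the substrate-binding subunit of a ubiquitin ligase for POLR2A, and the comparison asks where on these genes Pol II occupancy differs when it is absent. The KO is not limited to a cell type or time, no input or spike-in library was used here, so all values are relative within a library, and the knocked-out gene was not analysed here, which leaves the genotype unchecked by its own counts.

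Core histones H2A, H2B, H3 and H4 form the protein spool around which DNA is wound in the nucleosome, and a cell must make large amounts of them whenever it copies its genome. Their replication-dependent genes are short, have no introns in most cases and are transcribed mainly in S phase at a nuclear structure built around the activator NPAT. Their mRNAs end in a conserved stem-loop, bound by SLBP, in place of a poly(A) tail. Since transcription of these genes follows DNA replication, dividing precursor cells are a setting in which they are strongly used.

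The stem-loop was looked for in the annotated gene of each member and in a stretch past its end. It marks where a replication-dependent mRNA ends and thus where the gene body and the transcription end site (TES) region meet. Only a perfectly paired stem that begins with GG and ends with CC, around a loop that begins with TT, was counted. A stem-loop of another form would thus be missed. This form was present in 29 of the 32 members and not found for Hist1h3g, Hist1h4a or Hist2h2be. The 16 bases are given from the RefSeq genome GRCm38.p6, with the loop of 4 bases in capitals, for a member of each class that results below turn on.

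Hist2h2aa2 (chr3:96239784-96239799, minus strand): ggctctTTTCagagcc
Hist1h2bg (chr13:23571843-23571858, plus strand): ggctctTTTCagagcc
Hist1h3a (chr13:23761890-23761905, minus strand): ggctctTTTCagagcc
Hist1h3f (chr13:23544932-23544947, plus strand): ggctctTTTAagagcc
Hist1h4c (chr13:23698089-23698104, minus strand): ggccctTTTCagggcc
Hist4h4 (chr6:136803998-136804013, minus strand): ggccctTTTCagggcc

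The H4 members shown have another stem than the members of the other classes. In Hist1h4c the stem-loop ends 5 bases before the RefSeq gene end and 454 bases before the GENCODE gene end. In Hist4h4 the same distances are 5 and 2445 bases, and in Hist1h2bc they are 7818 and 8246 bases. Since the sources used here do not name the annotation behind the deposited regions, whether a gene body or TES window held the mRNA end was not known for such members.

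Promoter sequences show what the classes share and where they differ ahead of the start site. Of the 32 members, 26 matched a single RefSeq promoter of GRCm38.p6, which runs from 250 bases before to 50 bases after the start. The others were Hist1h2bc, Hist1h2be, Hist1h3a, Hist1h3f, Hist2h2be and Hist2h4. Searched on both strands were the NF-Y box CCAAT, the TATA box TATAAA and the octamer ATTTGCAT of POU-domain factors. The octamer holds the core ATTTGCA, which is what the capitals mark. The last 150 bases before the start are shown for members named in the results, with every match to an NF-Y box, a TATA box or this core, in either direction, in capitals.

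Hist2h2aa2 (chr3:96240375-96240524, minus strand): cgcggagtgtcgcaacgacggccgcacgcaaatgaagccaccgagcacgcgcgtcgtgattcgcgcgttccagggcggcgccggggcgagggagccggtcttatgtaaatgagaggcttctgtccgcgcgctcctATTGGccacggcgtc
Hist1h2bg (chr13:23571250-23571399, plus strand): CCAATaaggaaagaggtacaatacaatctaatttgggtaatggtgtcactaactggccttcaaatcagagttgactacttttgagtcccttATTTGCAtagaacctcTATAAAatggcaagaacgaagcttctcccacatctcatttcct
Hist1h3d (chr13:23575613-23575762, plus strand): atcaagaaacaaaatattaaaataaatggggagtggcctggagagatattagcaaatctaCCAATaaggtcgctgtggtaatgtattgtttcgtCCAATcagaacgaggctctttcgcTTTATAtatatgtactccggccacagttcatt
Hist1h4c (chr13:23698459-23698608, minus strand): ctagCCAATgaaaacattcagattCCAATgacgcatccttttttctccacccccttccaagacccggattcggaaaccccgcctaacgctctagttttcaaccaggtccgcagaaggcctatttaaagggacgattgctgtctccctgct
Hist1h4a (chr13:23761250-23761399, minus strand): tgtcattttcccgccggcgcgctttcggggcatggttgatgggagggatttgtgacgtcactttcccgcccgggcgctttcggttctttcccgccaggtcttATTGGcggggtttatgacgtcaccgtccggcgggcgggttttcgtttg

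CCAAT stood in 23 of the 26 member promoters, against 37.4% of 32851 RefSeq promoters of the same length. It was in all 7 H2A, all 6 H2B and all 7 H3 promoters matched, and in 3 of 6 H4 promoters. TATAAA stood in 15 of 26, against 13.6% of all promoters. The octamer stood in 4 of 7 H2A and 3 of 6 H2B promoters and in 0 of 7 H3 and 0 of 6 H4 promoters, against 1.74% of all. These are matches of letters and not measured binding sites.

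Some members cannot be measured apart from others. The genes Hist2h2aa1 and Hist2h2aa2, which both encode H2A, share an identical run of 528 bases, and Hist2h3c1 and Hist2h3c2, which encode H3, share 666 bases. In the gene bodies of Hist2h2aa1, Hist2h2aa2 and Hist1h2ad, 0% of 50-base and of 100-base runs were unique in the genome, so the read counts there depend on how the aligner placed reads with more than 1 match. The gene body of Hist1h3a had 21.8% unique 50-base and 42.1% unique 100-base runs, and that of Hist1h4c had 74.4% and 81.6%. At promoters, Hist2h3c1 and Hist2h3c2 had 11.1% unique 50-base and 24.9% unique 100-base runs each. Divergent genes share promoter windows: Hist1h2ac with Hist1h2bc over 452 bases, Hist1h2ae with Hist1h2bg over 377, Hist1h2bh with Hist1h3f over 141 and Hist2h2ac with Hist2h2be over 440 (GENCODE). The TES windows of 10 members hold another histone gene, among them that of Hist1h3a, which holds Hist1h4a. The counting is not stated to use strand, and ChIP reads carry none. Values of these members are therefore uncertain for the single gene.

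The libraries held 14528870 to 25199455 reads over all regions. Same-numbered KO and WT libraries deviated together from their group means in gene bodies (correlation 0.88, 0.74 and 0.83 for pairs 1 to 3), so each KO library was read against the WT library of its pair. The members took 0.104%, 0.0948% and 0.0722% of gene body reads in KO libraries 1 to 3, against 0.0509%, 0.0857% and 0.0472% in WT libraries 1 to 3. Pair 1 thus had the widest gap, while the highest share of all was in KO library 1 and the lowest in WT library 3. The gene Gm10800 took 4.54% to 31.4% of promoter reads in KO libraries and 1.71% to 20.4% in WT libraries. Of the marker genes fixed for other cells, 0 of 6 for microglia and blood and 0 of 4 for fibroblasts were among the measured genes, against 12 of 15 neural precursor markers, and 0 of any marker list were called. Markers of the oligodendrocyte lineage were measured for 5 of 7, of astrocytes for 2 of 5 and of endothelial and mural cells for 1 of 4. Neuron markers were present for 6 of 8, with summed gene body signal of 766 to 870 TMM-scaled CPM, that is reads relative to the library total, in KO and 701 to 939 CPM in WT. Pair 1 stood apart in single markers, named here after their values were seen. The gene body of Olig2, a transcription factor of the oligodendrocyte lineage and of ventral precursors, had 165, 41.4 and 41.8 CPM in KO libraries 1 to 3, against 186, 35.2 and 47.4 CPM in WT libraries 1 to 3. That of Gad2, which makes the transmitter GABA, had 24.8, 103 and 78.8 CPM in KO, against 23.9, 75.97 and 74.4 CPM in WT. Both genotypes of pair 1 were thus high for Olig2 and low for Gad2. These genes do not stand for the other markers of their lists, whose single values are not given here. Summed neuron signal varied less between libraries than Gad2 did.

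Relative Pol II signal in gene bodies was higher in KO than in WT NPCs for most core histone genes, but few passed the threshold. Of the 32, 31 had a log2 fold change above 0, all but Hist2h2aa1, and the median was 0.61, against -0.01 over all 12107 genes. In a fit of all 36321 regions with the pair as a block (limma-voom, Benjamini-Hochberg adjustment over all regions, call at an adjusted p under 0.1), 3 members rose and 0 fell, while 0.173% of all genes were called higher. They were the H2A gene Hist2h2aa2, the H3 gene Hist1h3a and the H4 gene Hist1h4c. At an unadjusted p under 0.05, 26 of 32 were higher, against 4.82% of all genes. In 23 members KO was higher in all 3 pairs (13.7% of all genes), and in 10 every KO library lay above every WT library (1.5% of all genes). The libraries are of bulk cells, so more Pol II per cell and more cells with Pol II on these genes cannot be told apart.

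The size of the difference was not the same in the 3 pairs. The median over members stood at 1.22, 0.14 and 0.54 for pairs 1 to 3 (log2, KO over WT), with the largest in the pair that stood apart in Olig2 and Gad2, whose part in this result was not tested. Above 0 were 31 members in pair 1, 23 in pair 2 and 31 in pair 3. Leaving out pair 1 gave a median of 0.31 with 6 members called, among 99 gene bodies called over all genes. Leaving out pair 2 gave 0.93 with 1 member called, among 6 over all genes. Of the 3 genes called with all libraries, 3 were kept without pair 1 and 1 without pair 2. Without 1 library at a time the count was 6 (KO 1 or WT 1), 20 (KO 2), 9 (WT 2) and 15 (KO 3 or WT 3), all of them higher in KO, and each count took in the 3 genes named above. With the pair as a block, a library without its partner holds no genotype difference. Each of these fits thus rests on the remaining pairs and is not a separate check from leaving out the pair. Calls over all gene bodies were also more numerous in the fits without 1 library, at 131 (KO 1), 132 (WT 1), 101 (KO 2), 32 (WT 2), 149 (KO 3) and 150 (WT 3), against 21 higher and 4 lower with all libraries. Hist1h3a and Hist1h4c were not called with scaling to total counts or with each kind of region scaled and adjusted alone, where Hist2h2aa2 was. Without the block, 0 members were called and 9 passed an unadjusted p under 0.05 (limma). Over all 12107 gene bodies 0 were called and 35 passed.

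**Figure D1:**
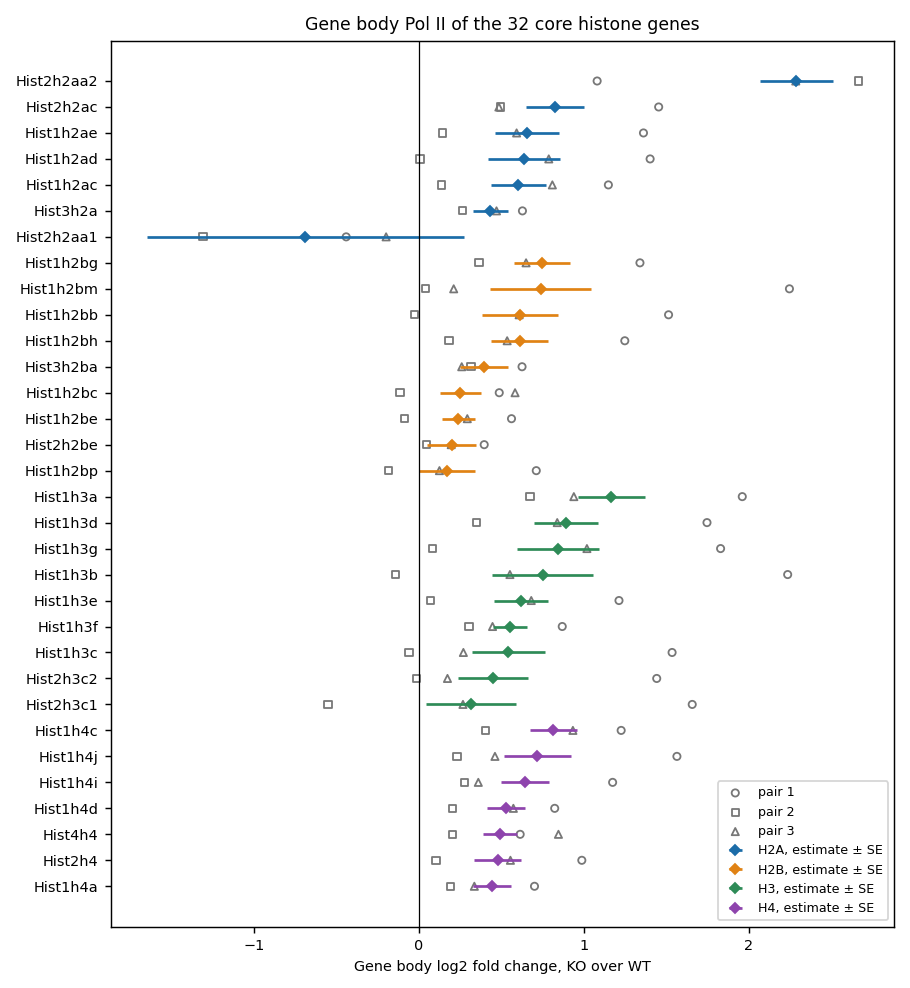
Gene body log2 fold change, KO over WT (x axis), of the 32 core histone genes (y axis), grouped by class. Diamonds with bars are the estimate ± SE, and open circles, squares and triangles are pairs 1, 2 and 3. Pair 1 lies farthest right for most members, and the estimate of Hist2h2aa2, at 2.29, stands apart from the others. Hist2h2aa1 rests on 1 read.

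H2A, which pairs with H2B in the nucleosome, had the largest called change, in a gene whose reads cannot be told from those of its copy. Hist2h2aa2 had 3.13, 22.4 and 21.5 CPM in its gene body in KO libraries 1 to 3, against 1.47, 3.52 and 4.39 CPM in WT libraries 1 to 3. KO libraries 2 and 3 lay far above all WT libraries, and KO library 1 lay between WT libraries 1 and 2, so the groups overlapped. This gave 2.29 ± 0.22 on the log2 scale (± SE, adjusted p = 0.00402 by limma), a fold of 4.88. These values rest on 87, 468 and 304 reads in KO and 30, 89 and 54 reads in WT. Its copy Hist2h2aa1 had 0 reads in the 3 KO gene bodies and 1 read over the 3 WT gene bodies, so no fold is given.

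No other H2A gene body was called. Hist2h2ac had 17.6, 15.4 and 13.7 CPM in KO, against 6.40, 10.9 and 9.75 CPM in WT, with every KO library above every WT library (log2 fold change 0.83 ± 0.18, limma adjusted p = 0.151). Hist3h2a, with the highest gene body count of the class, had 26.2, 32.03 and 21.0 CPM in KO, against 16.9, 26.7 and 15.1 CPM in WT (0.43 ± 0.11, adjusted p = 0.24). KO was higher in each pair, and the groups overlapped. Its window also overlaps Trim17, a ubiquitin ligase gene of the same strand. Hist1h2ac averaged 18.1 ± 3.4 CPM in KO and 11.9 ± 5.38 CPM in WT (SD, n = 3 each).

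H2B gene bodies gave the smallest differences of the 4 classes, with a median log2 fold change of 0.39. The medians were 0.64 for H2A, 0.62 for H3 and 0.53 for H4. Hist1h2bg had 14.5, 16.4 and 12.4 CPM in KO, against 5.71, 12.7 and 7.88 CPM in WT (0.75 ± 0.17, limma adjusted p = 0.19). KO library 3 lay below WT library 2, so the groups overlapped, although KO was higher in each pair. Hist1h2bh had 15.1, 15.4 and 19.3 CPM in KO, against 6.35, 13.6 and 13.3 CPM in WT, without overlap (0.61 ± 0.17, adjusted p = 0.331). Hist3h2ba had 6.87, 16.2 and 5.17 CPM in KO, against 4.44, 13.0 and 4.31 CPM in WT (0.39 ± 0.14, adjusted p = 0.485). In Hist3h2ba library 2 was high in both genotypes.

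The H2B genes with the most gene body reads have long annotated bodies. Hist1h2be, whose annotated body spans 37255 bases and overlaps the linker histone gene Hist1h1e, had 80.2, 83.3 and 97.5 CPM in KO, against 54.4, 88.3 and 79.5 CPM in WT (0.24 ± 0.10, limma adjusted p = 0.562). Hist1h2bc averaged 35.6 ± 6.68 CPM in KO and 29.3 ± 10.2 CPM in WT (SD, n = 3 each). In both, KO was lower than WT in pair 2. Hist2h2be, with the lowest count of the class, had 7.02, 9.59 and 7.36 CPM in KO, against 5.32, 9.30 and 6.42 CPM in WT, and no difference was detectable at this depth (0.20 ± 0.15, adjusted p = 0.77).

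H3, which carries many of the marks written on chromatin, had the second largest called change. Hist1h3a had 16.4, 14.1 and 15.9 CPM in its gene body in KO, against 4.20, 8.86 and 8.29 CPM in WT. All KO libraries lay above all WT libraries, and WT library 1 was the lowest (log2 fold change 1.17 ± 0.20, limma adjusted p = 0.0825, a fold of 2.25). Most 50-base runs of this gene body are not unique in the genome, so its value is uncertain for the single gene. Hist1h3f had 61.3, 52.8 and 42.2 CPM in KO, against 33.5, 42.8 and 31.0 CPM in WT (0.55 ± 0.10, adjusted p = 0.101), just outside the threshold. KO library 3 lay just below WT library 2, so the groups overlapped. Hist1h3d had 21.8, 22.2 and 26.6 CPM in KO, against 6.50, 17.4 and 14.9 CPM in WT, without overlap (0.89 ± 0.19, adjusted p = 0.159).

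Among the remaining H3 genes named by rule, Hist1h3e averaged 32.4 ± 4.44 CPM in KO and 21.1 ± 5.98 CPM in WT (SD, n = 3 each). Hist1h3g, with the lowest count of the class, had 10.5, 10.6 and 11.9 CPM in KO, against 2.93, 10.0 and 5.85 CPM in WT (0.84 ± 0.25, limma adjusted p = 0.366). The H3 copies of Hist2 differed between the pairs. Hist2h3c1 had 19.1, 15.1 and 25.6 CPM in KO, against 6.06, 22.1 and 21.3 CPM in WT, so KO was higher in pair 1 (1.66) and lower in pair 2 (-0.55). Hist2h3c2 had 12.4, 13.3 and 17.4 CPM in KO, against 4.54, 13.4 and 15.4 CPM in WT, with 1.44 in pair 1, -0.01 in pair 2 and 0.17 in pair 3.

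H4, the most conserved core histone, was the class in which KO was higher in every pair for all 7 gene bodies. Hist1h4c had 34.9, 30.6 and 24.7 CPM in KO, against 14.9, 23.2 and 12.9 CPM in WT. All KO libraries lay above all WT libraries (log2 fold change 0.81 ± 0.14, limma adjusted p = 0.0825, a fold of 1.76). Hist4h4, the lone member of its cluster and the H4 gene with the most reads, had 71.8, 63.7 and 45.7 CPM in KO, against 46.9, 55.3 and 25.4 CPM in WT (0.49 ± 0.10, adjusted p = 0.125). The groups overlapped, with library 3 the lowest of each genotype.

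Hist1h4d had 44.1, 34.001 and 32.3 CPM in KO, against 24.9, 29.6 and 21.7 CPM in WT, without overlap (0.53 ± 0.12, limma adjusted p = 0.158). Hist2h4 had 26.8, 33.6 and 25.2 CPM in KO, against 13.53, 31.3 and 17.1 CPM in WT (0.48 ± 0.14, adjusted p = 0.372). Its groups overlapped, since WT library 2 lay above KO libraries 1 and 3. Hist1h4j, with the lowest count of the class, averaged 18.3 ± 2.35 CPM in KO and 11.5 ± 4.59 CPM in WT (SD, n = 3 each). Hist1h4a averaged 26.5 ± 8.67 CPM in KO and 19.5 ± 3.64 CPM in WT (0.44 ± 0.12, adjusted p = 0.286).

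**Figure D2:**
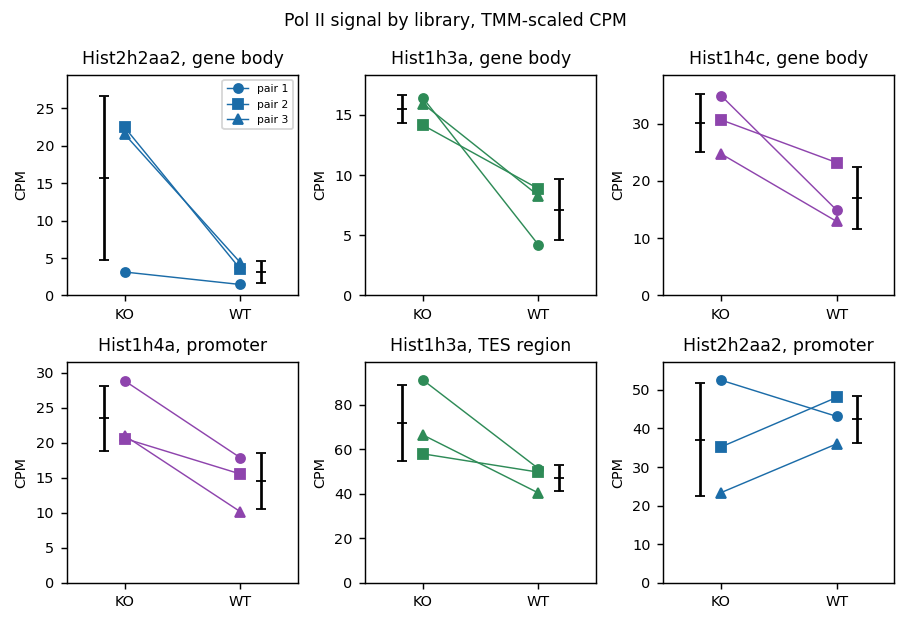
TMM-scaled CPM (y axis) in KO and WT libraries (x axis) for the 5 called member regions and the promoter of Hist2h2aa2. Lines join the libraries of a pair, and bars beside each group are mean ± SD of 3 libraries. In the gene body of Hist2h2aa2 pair 1 is low in both genotypes, while its promoter is higher in KO in pair 1 and lower in pairs 2 and 3.

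Summed over the 32 members, gene bodies held 757, 741 and 715 CPM in KO libraries 1 to 3, against 380, 663 and 491 CPM in WT libraries 1 to 3. The KO sums lay close together and all above the WT sums, which spread more widely. Log2 ratios of the sums were 0.99, 0.16 and 0.54 for pairs 1 to 3. These sums are descriptions and were not tested.

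By class, the H2A gene bodies summed to 86.3, 114 and 101 CPM in KO, against 40.9, 81.8 and 55.8 CPM in WT, a mean log2 ratio of 0.80 ± 0.31 (SD of 3 pairs). Without the copies Hist2h2aa1 and Hist2h2aa2 the H2A ratio was 0.64 ± 0.43. H3 gene bodies summed to 208, 180 and 210 CPM in KO, against 82.0, 167 and 145 CPM in WT (0.66 ± 0.63). H4 gene bodies summed to 279, 236 and 193 CPM in KO, against 149, 202 and 127 CPM in WT (0.58 ± 0.34). H2B gene bodies summed to 184, 211 and 212 CPM in KO, against 108, 212 and 163 CPM in WT (0.38 ± 0.39), with a log2 ratio of -0.0041 in pair 2. The long bodies of Hist1h2be and Hist1h2bc averaged 74.1 and 29.3 CPM in WT, within an H2B mean of 161 CPM. H2B was not summed without them, so its ratio may not hold for its shorter genes. Class means thus spanned 0.38 to 0.80 and their SDs 0.31 to 0.63, and the pairs differed most in H3, with 1.34 in pair 1 and 0.11 in pair 2.

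Cluster means lay closer together than class means. Hist1 gene bodies summed to 566, 520 and 533 CPM in KO, against 274, 478 and 372 CPM in WT, a mean log2 ratio of 0.56 ± 0.46 (SD of 3 pairs). Hist2 gave 86.1, 109 and 111 CPM in KO, against 37.3, 90.6 and 74.4 CPM in WT (0.68 ± 0.48). Hist3 gave 33.1, 48.2 and 26.1 CPM in KO, against 21.4, 39.7 and 19.4 CPM in WT (0.45 ± 0.17). With the single gene of Hist4 at 0.56 ± 0.32, all 4 clusters had a mean ratio above 0 in gene bodies on 4 chromosomes.

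**Figure D3:**
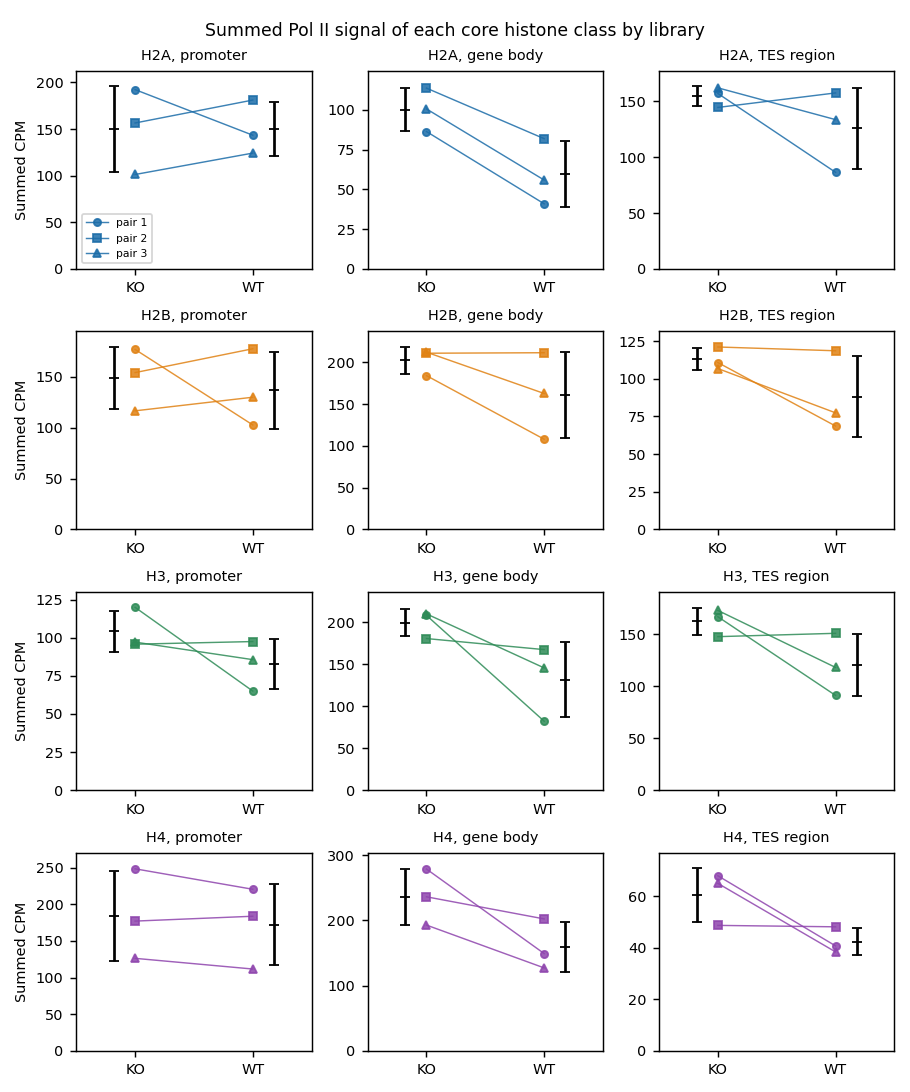
Summed TMM-scaled CPM (y axis, from 0) of the H2A, H2B, H3 and H4 members (rows) at promoters, gene bodies and TES regions (columns) in KO and WT libraries. Lines join the libraries of a pair and bars are mean ± SD of 3 libraries. Gene body lines fall toward WT in all 3 pairs for H2A, H3 and H4, while promoter lines run in both directions in each class.

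Promoters, where Pol II is loaded and held before it enters the gene, differed less. The median log2 fold change over the 32 members was 0.12, against 0.03 over all genes, and 28 lay above 0. Only Hist1h4a was called, against 0.165% of all genes called higher. At an unadjusted p under 0.05, 8 members were higher (7.55% of all genes), 7 were higher in all 3 pairs (18% of all genes) and 2 had no overlap of the groups (2.24% of all genes). The pair medians were 0.67, -0.13 and -0.02, so the promoter difference lay in pair 1, and without pair 1 the median was -0.11.

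Hist1h4a had 28.9, 20.6 and 21.0 CPM at its promoter in KO, against 17.9, 15.6 and 10.2 CPM in WT, without overlap (log2 fold change 0.66 ± 0.12, limma adjusted p = 0.093). This call was lost without WT library 2 (adjusted p = 0.12), with scaling to total counts and on the deposited log2 CPM. Its promoter window lies within the TES window of Hist1h3a, so the 2 regions share reads. The promoter of Hist1h3f was the other without overlap, with 2.38, 2.69 and 2.27 CPM in KO, against 0.83, 1.38 and 2.11 CPM in WT (0.88 ± 0.29, adjusted p = 0.437). The promoter of Hist1h3a had 23.6, 13.1 and 10.3 CPM in KO, against 10.2, 13.3 and 10.2 CPM in WT, higher in pair 1 and level in pairs 2 and 3.

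Hist1h4c and Hist2h2aa2, called in gene bodies, were not called higher at promoters. The promoter of Hist1h4c had 42.1, 25.7 and 14.9 CPM in KO, against 41.4, 27.9 and 17.0 CPM in WT (-0.06 ± 0.09, limma adjusted p = 0.896). The promoter of Hist2h2aa2 had 52.5, 35.2 and 23.4 CPM in KO, against 43.1, 48.0 and 36.0 CPM in WT (-0.17 ± 0.13, adjusted p = 0.781). It was higher in KO in pair 1 and lower in pairs 2 and 3. Without KO library 1 it was called lower (-0.51, limma adjusted p = 0.00127), as it was without WT library 1. Both fits rest on pairs 2 and 3. They called 356 and 355 promoters over all genes, against 20 higher and 1 lower with all libraries. The promoter of Hist2h2ac had 27.1, 17.6 and 12.2 CPM in KO, against 18.3, 21.5 and 16.8 CPM in WT (0.04 ± 0.16). Summed promoters had a mean log2 ratio of -0.03 ± 0.39 for H2A, 0.14 ± 0.56 for H2B, 0.35 ± 0.48 for H3 and 0.10 ± 0.13 for H4 (SD of 3 pairs).

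In TES regions, where Pol II runs past the mRNA end, the median log2 fold change of members was 0.27, against -0.08 over all genes, and 25 of 32 lay above 0. Only Hist1h3a was called, against 0.0248% of all genes called higher. At an unadjusted p under 0.05, 10 were higher (1.4% of all genes), 12 were higher in all 3 pairs (7.86% of all genes) and 8 had no overlap of the groups (0.809% of all genes). Among these 10, the windows of Hist1h2ad, Hist1h2be, Hist1h2bg, Hist1h3a and Hist1h4c hold another histone gene, whose reads were not separated. The TES region of Hist1h3a had 91.2, 58.0 and 66.5 CPM in KO, against 51.3, 49.7 and 40.4 CPM in WT (0.59 ± 0.10, limma adjusted p = 0.0858). All KO libraries lay above all WT libraries. The call was lost with scaling to total counts and on the deposited log2 CPM. As this window holds Hist1h4a, the value cannot be given to Hist1h3a alone.

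Hist4h4 went the other way in its TES region. It had 0.83, 1.63 and 1.91 CPM in KO, against 0.93, 2.89 and 2.68 CPM in WT, lower in KO in each pair but not called (-0.57 ± 0.26, limma adjusted p = 0.602). These are low values, and the GENCODE end of this gene lies 2445 bases beyond its stem-loop. The TES region of Hist1h4c had 10.0, 7.86 and 9.13 CPM in KO, against 6.69, 7.79 and 4.14 CPM in WT, without overlap (0.49 ± 0.19, adjusted p = 0.511). The TES region of Hist2h2aa2 had 42.1, 36.2 and 44.6 CPM in KO, against 15.9, 44.8 and 43.8 CPM in WT, where WT library 1 was far below the other 5. The pair medians were 0.63, -0.06 and 0.40. Summed TES regions had a mean log2 ratio of 0.34 ± 0.50 for H2A, 0.40 ± 0.34 for H2B, 0.46 ± 0.46 for H3 and 0.50 ± 0.42 for H4 (SD of 3 pairs). Some TES windows overlap that of another member. Over the 22 members without such overlap the ratios were 0.12 for H2A, 0.39 for H2B, 0.54 for H3 and 0.48 for H4.

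The ratio of promoter to gene body reads, a measure of how much Pol II sits at the start for each Pol II along the gene, was lower in KO for most members. It was tested for the 31 members with a mean of at least 10 reads in both regions, with limma over 12096 genes. The median difference of the log2 ratio, KO minus WT, was -0.45 over members and 0.01 over all genes, and 27 of 31 lay below 0. None of the 31 was called, and 0.00827% of all genes were called lower. At an unadjusted p under 0.05, 16 members were lower (3.65% of all genes), and 22 were lower in all 3 pairs (14.7% of all genes). The median was below 0 in each pair, at -0.56, -0.24 and -0.60.

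Hist2h2aa2 had log2 ratios of 4.06, 0.65 and 0.12 in KO, against 4.86, 3.76 and 3.02 in WT, a difference of -2.27 ± 0.43 (limma adjusted p = 0.247). KO library 1 lay within the WT range and KO libraries 2 and 3 lay far below it. Hist1h4c had 0.27, -0.26 and -0.72 in KO, against 1.47, 0.27 and 0.39 in WT (-0.95 ± 0.21, adjusted p = 0.247), lower in each pair, with KO library 1 just above WT library 2. Hist2h2ac had 0.63, 0.19 and -0.17 in KO, against 1.51, 0.98 and 0.78 in WT, with every KO library below every WT library (-0.87 ± 0.20, adjusted p = 0.247). Hist1h4a was among the 4 members above 0 (0.31 ± 0.20, adjusted p = 0.624). With the trend of the spread set on the mean promoter count, 9 members were called lower, and with at least 50 reads 5 were. Calls over all genes were not counted in these fits, so these numbers cannot be set against a share of all genes.

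**Figure D4:**
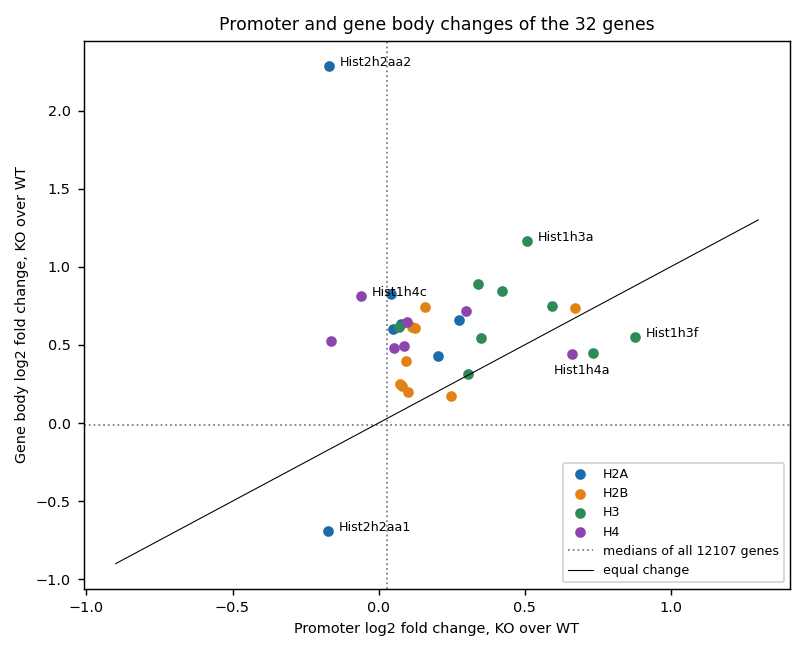
Promoter log2 fold change (x axis) against gene body log2 fold change (y axis), KO over WT, of the 32 core histone genes, coloured by class. Dotted lines are the medians of all 12107 genes and the solid line marks equal change. Most members lie above that line, Hist2h2aa2 farthest, and Hist1h4a and Hist1h3f are among those below it.

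Per length, the member promoters were among the more occupied. Over the window of 500 bases they had a median of 29.1 CPM per kilobase in WT, against 11.4 CPM per kilobase over all genes, and 29 of 32 lay above that value for all genes. The highest were Hist4h4, with 90.6 ± 36.6 CPM per kilobase in KO and 85.0 ± 39.2 in WT, and Hist2h2aa2, with 74.0 ± 29.3 in KO and 84.8 ± 12.1 in WT (SD, n = 3 each). These do not differ beyond their spread. The lowest were Hist2h3c1, with 1.83 ± 0.49 CPM per kilobase in KO and 1.54 ± 0.80 in WT, whose promoter runs are mostly not unique, and Hist1h3f, with 4.88 ± 0.44 in KO and 2.88 ± 1.29 in WT. Hist1h3f thus combined a low promoter value with the most gene body reads of the H3 class. Its stem-loop lies 881 bases from the annotated start, against 452 to 554 bases in the other Hist1 H3 genes where it was found. Whether its promoter window held the start in use was not tested, so this split between windows is uncertain. For gene bodies, lengths agreed within 25% between GENCODE and RefSeq in 13 members. Of these Hist1h4a was highest, with 89.1 ± 29.2 CPM per kilobase in KO and 65.6 ± 12.3 in WT, and Hist1h3a had 48.7 ± 3.75 in KO and 22.4 ± 7.99 in WT.

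Other genes of the histone supply and of the cell cycle were set beside the members. Of the linker histone genes, which encode the H1 proteins that bind DNA between nucleosomes, 6 of 7 were measured, with gene bodies at a median log2 fold change of 0.40. All 6 lay above 0, and 4 were higher at an unadjusted limma p under 0.05. Their medians in pairs 1 to 3 were 0.88, 0.18 and 0.14, against 0.14 for the core histone genes in pair 2. Hist1h1a was called, with 22.6, 20.6 and 19.6 CPM in KO, against 5.86, 11.5 and 9.99 CPM in WT (1.24 ± 0.18, limma adjusted p = 0.0395). The replacement histones, made outside S phase as well, had a median of 0.13 over 8 of 9 genes, and 0 were called. Of these H2afx, whose product is phosphorylated at DNA breaks, had 0.66 ± 0.17 (adjusted p = 0.275). The factors for histone gene expression, such as Npat, Slbp and Cpsf2, had a median of 0.05 over 24 of 27 genes, and 0 were called.

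Gene bodies of S phase replication genes had a median log2 fold change of 0.18 over 36 of 37 genes, with 33 above 0, 0 called and 10 higher at an unadjusted p under 0.05. Mitosis genes had a median of 0.17 over 19 genes, with 18 above 0 and 0 called. In pairs 1 to 3 the replication genes had medians of 0.54, -0.01 and 0.00 and the mitosis genes 0.62, -0.08 and 0.03. Both lists thus stood above 0 in pair 1, the pair with the largest histone difference, and near 0 in pairs 2 and 3, where the core histone medians were 0.14 and 0.54. Their part in the histone result was not tested. Other genes with a gene body under 1000 bases had a median of 0.11 over 70 genes, with 0 called and pair medians of 0.09, 0.11 and 0.14. Most but not all members are as short in GENCODE, where the gene body of Hist4h4 has 2663 bases and that of Hist1h2be 37255.

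**Figure D5:**
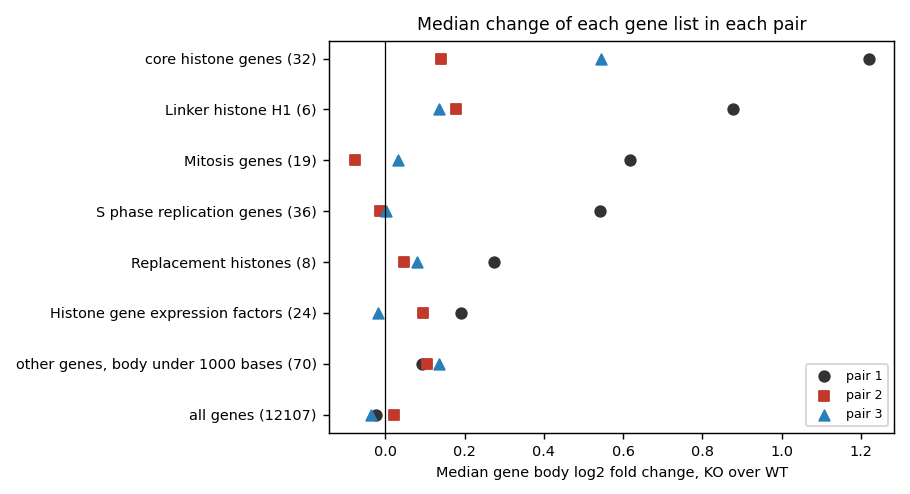
Median gene body log2 fold change, KO over WT (x axis), of the core histone genes and of other lists (y axis, number of genes in brackets), with circles, squares and triangles for pairs 1, 2 and 3. The core histone genes have the highest median in pairs 1 and 3, at 1.22 and 0.54, and the replication and mitosis genes are above 0 only in pair 1 by more than 0.1.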

How the data were processed

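Pol II ChIP-seq reads of 3 KO and 3 WT libraries were, per the labels, made with tools including bcl2fastq 2.20, BWA for alignment, HOMER for counting, and Trimmomatic, Picard, MACS2, limma and edgeR, on GRCm38/mm10. The authors deposited raw read counts for 3 regions of each of 12107 genes, promoter (400 bases before to 100 after the start), gene body and TES region (100 bases before to 2000 after the end), and log2 CPM values made from them. Genes without KO signal had been removed by the authors. Their gene annotation was not given in these sources.

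Here the deposited counts of all 36321 regions were scaled by TMM (edgeR 4.0.16) and fitted with limma-voom (limma 3.58.1, R 4.3.3), with pair and genotype as terms. All p-values were two-sided and adjusted by Benjamini-Hochberg, with a threshold of 0.1. The promoter to gene body ratio was log2 of counts plus 0.5, fitted with limma with a trend. CPM were TMM-scaled. Same-numbered libraries were treated as pairs because their deviations from the group means correlated above 0.1 in all 3 pairs and in each kind of region, with the lowest value 0.56. The labels do not say which cultures or animals the replicates came from, so p-values measure the spread between these libraries.

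Named genes were those called, the 3 with the lowest p and the 2 with the most gene body reads of each class, the member with the fewest gene body reads of each class, all Hist2, Hist3 and Hist4 members, and the 3 with the lowest p for the ratio. Members and lists were chosen with earlier results of these data known. Alternatives included edgeR's quasi-likelihood test, DESeq2 1.42.0, other scalings and filters, no block and leaving out libraries. The code was tested on simulated data. Sequences are from RefSeq GRCm38.p6.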

Additional observations from a re-analysis of the deposited data

How the results depend on the processing

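Members called in gene bodies numbered 3, against 5 with edgeR's quasi-likelihood test, 6 with DESeq2, 5 without genes whose symbols start with Gm10 or Gm26, 1 with scaling to total counts and 1 with each kind of region scaled and adjusted alone. Over all gene bodies the same fits called 29, 38, 44, 13 and 4, against 21 higher and 4 lower in the fit reported. Leaving out 1 library or pair gave 1 to 20 members, among 6 to 152 gene bodies called over all genes. At promoters the count of 1 became 0 with total counts and 0 on the deposited log2 CPM, and 0 to 2 with libraries left out. Over all promoters these fits called 6, 12 and 2 to 356, against 20 higher and 1 lower in the fit reported. In TES regions the count of 1 became 3 with DESeq2, 5 with each kind of region alone, 2 without the Gm genes, 0 with total counts and 0 on the log2 CPM, and 1 to 8 with libraries left out. Over all TES regions these fits called 5, 14, 7, 1, 2 and 3 to 59, against 3 higher and 0 lower in the fit reported. Without the replicate block 0 members were called in gene bodies, 0 at promoters and 0 in TES regions. For the ratio, 0 became 9 with the spread modelled on mean promoter counts and 5 with at least 50 reads, and 0 to 2 with libraries left out. Ratio calls over all genes were not counted in these fits, so no share stands beside these numbers. The cause of the changes in count between fits was not tested.

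Single member results were recomputed under each setting for the 32 gene bodies. Only the 8 promoters and 11 TES regions with an unadjusted limma p under 0.05 were added. The other promoters and TES regions were not followed, so the count of reversals does not cover them. Of these 51 results, 3 turned direction with a library or pair left out, each without KO library 1, WT library 1 or both. They ranged from -0.070 to 0.44 for the Hist1h2bp gene body, -0.00657 to 0.82 for the Hist1h3a promoter and -0.19 to 0.92 for the Hist2h3c1 gene body. The median over members ranged from 0.31 to 0.93 in gene bodies, -0.11 to 0.39 at promoters, where it turned direction without KO library 1, WT library 1 or both, and 0.15 to 0.60 in TES regions with libraries left out. Hist2h2aa1 was poorly measured, since its gene body had 1 read in 6 libraries and 0% unique runs, while its promoter had 87 to 362 reads. The cause of this low count was not tested.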
